A study of Homo sapiens with 2 samples.

Results

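Voltage-gated calcium, sodium and potassium channel genes, with the other potassium channel genes that carry a KCN symbol, were described by the FLAG-SMARCA4 ChIP-seq of parental TOV21G cells and an EIR clone. The members were chosen by symbol. They are the protein-coding genes named CACNA1 plus a letter, CACNA2D, CACNB or CACNG plus a number, SCN plus a number, or any symbol starting with KCN, in GENCODE release 44 mapped to GRCh37. This gave 135 of 20176 protein-coding genes. The name is wider than the gating: the inward rectifier (KCNJ), two-pore (KCNK) and small-conductance calcium-activated (KCNN) channels hold no voltage sensor that opens them. By symbol, 60 of the 135 genes are pore genes of the calcium, sodium or Kv type, and these are called pore-forming voltage-gated here. That label was set by symbol and not by measured gating, and *KCNMA1* is counted with the calcium-activated channels and not among the 60.

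TOV21G is a line from an ovarian clear cell carcinoma with mutated *ARID1A*, and both conditions carry that background and a FLAG epitope added to the *SMARCA4* gene at its own locus by CRISPR. The EIR (EZH2 inhibitor-resistant) condition is a single clone, number 3 in the labels, that grew out of TOV21G cells kept in the EZH2 inhibitor GSK126 while its concentration was raised from 5 to 20 μM. Each condition has 1 library, so every difference below compares 2 libraries, has no replicate check and carries no p-value. The question was where SMARCA4 occupancy differed between EIR and parental cells.

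SMARCA4 is an ATPase of the SWI/SNF complex, which slides and evicts nucleosomes at promoters and enhancers. Voltage-gated channels open an ion-selective pore when the membrane depolarizes. Calcium and sodium channels depolarize the cell further and potassium channels return it to rest. Inward rectifier and two-pore potassium channels set the resting potential in most cell types, and calcium-activated potassium channels couple the potential to cytosolic calcium. Much of this gene family is known for its work in neurons and muscle, and many of its neuronal members are repressed outside neurons by the factor REST.

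The deposited lists hold the regions with more tags (aligned reads) in one library than in the other, 10792 higher in parental cells and 2104 higher in the EIR clone. Regions occupied alike in both libraries are in neither list, so a gene without a region is a gene without a listed difference and not a gene without SMARCA4. The libraries held about 25640000 parental and 34970000 EIR tags, and the EIR tags were scaled by the authors to the parental total, so that 1 EIR tag counts as 0.733. Folds are ratios of parental to scaled EIR tags or the reverse, and their 95% intervals (exact Clopper-Pearson) cover counting error only. All regions were selected for a difference, so an interval above 1 is no finding, and the folds are larger than those of an unselected set would be. The scaling sets both totals equal, so these values compare shares of each library and do not measure absolute amounts of SMARCA4 on chromatin. From its ChIP-seq the paper reports that SMARCA4 binding was generally lower in EIR than in parental cells.

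Of the 12896 regions, 114 belonged to channel genes. Within 1 kb of a transcription start site (TSS) of any transcript lay 39 of them, and 75 lay elsewhere in a gene body. At least 1 region was found in 48 genes and none in 87, and the shares of all protein-coding genes are given below by position and direction. No member region overlapped another listed region.

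Stretches from 6 regions are given as examples, 4 of them from the region with no tag in one library and from regions of large fold, and the other 2 from *KCNMA1* and *CACNA1H*, the genes with most body regions in either direction. Each is at most 200 bases of the longest part outside exons. It was placed around the first AP-1 match where there was one, and otherwise at the middle. The AP-1 matches shown are thus there by this choice. They were read from GRCh37, are given 5′ to 3′ on the plus strand, and lie outside every annotated exon. Capitals mark CpG pairs and, where 7 letters run together as TGANTCA, a match to the AP-1 motif.
CACNA1C promoter, no EIR tag: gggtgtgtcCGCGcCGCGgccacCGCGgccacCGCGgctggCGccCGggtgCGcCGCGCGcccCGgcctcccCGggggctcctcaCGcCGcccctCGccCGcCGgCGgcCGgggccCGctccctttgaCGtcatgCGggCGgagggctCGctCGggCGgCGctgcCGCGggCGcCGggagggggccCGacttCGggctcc
KCNJ4 promoter, parental-higher: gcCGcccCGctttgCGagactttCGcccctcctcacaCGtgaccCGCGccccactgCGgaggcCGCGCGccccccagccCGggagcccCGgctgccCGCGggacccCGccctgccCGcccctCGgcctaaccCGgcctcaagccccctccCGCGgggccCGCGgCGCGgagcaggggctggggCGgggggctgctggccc
KCNMA1 promoter, parental-higher: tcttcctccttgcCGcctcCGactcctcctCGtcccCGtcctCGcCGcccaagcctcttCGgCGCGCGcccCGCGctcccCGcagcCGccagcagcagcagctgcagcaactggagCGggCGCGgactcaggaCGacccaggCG
KCNJ2 intron 1, parental-higher: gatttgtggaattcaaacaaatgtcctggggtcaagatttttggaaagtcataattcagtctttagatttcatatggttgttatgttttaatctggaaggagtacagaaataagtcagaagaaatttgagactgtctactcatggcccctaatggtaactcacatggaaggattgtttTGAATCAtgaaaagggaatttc
CACNA1C intron 3, EIR-higher: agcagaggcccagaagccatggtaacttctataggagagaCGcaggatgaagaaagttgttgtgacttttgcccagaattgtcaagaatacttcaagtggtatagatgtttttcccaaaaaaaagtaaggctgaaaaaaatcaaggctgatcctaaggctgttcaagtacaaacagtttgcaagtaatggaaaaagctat
CACNA1H intron 2, EIR-higher: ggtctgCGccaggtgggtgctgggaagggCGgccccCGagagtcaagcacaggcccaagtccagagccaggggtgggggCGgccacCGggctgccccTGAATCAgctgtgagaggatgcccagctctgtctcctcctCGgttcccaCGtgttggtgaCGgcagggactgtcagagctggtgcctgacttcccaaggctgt

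These stretches lie at chr12:2161765-2161964, chr22:38851907-38852106, chr10:79398128-79398271, chr17:68168657-68168856, chr12:2444934-2445133 and chr16:1244092-1244291, in that order. The *CACNA1C* promoter stretch held 37 CpG pairs in 200 bases and was 85.5% G+C, and the *KCNJ4* stretch held 26 and was 82.5% G+C. The 2 intronic stretches of *KCNJ2* and *CACNA1C* held 0 and 1 CpG pairs in 200 bases and were 35% and 39% G+C. Their whole regions were 33.5% and 46.3% G+C, so a stretch can differ from its region. The *CACNA1H* stretch lay between, with 8 pairs and 67% G+C.

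At the starts of channel genes the differences ran mainly toward parental cells. A parental-higher region lay within 1 kb of a TSS in 32 of 135 channel genes (23.7%, Wilson 95% interval 17.3 to 31.5%), beside 23.2% of all protein-coding genes. The channel share was near the background. An EIR-higher region lay there in 5 genes (3.7%, 1.59 to 8.38%), beside 1.96% of all protein-coding genes. Channel genes had a median of 5 annotated TSSs, as did all protein-coding genes. These intervals treat genes as independent draws and are descriptions, not tests.

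The 33 parental-higher regions at channel starts had a median of 30 parental tags and 11.7 scaled EIR tags, and a median fold of 2.88 (order-statistic 95% interval 2.73 to 3.43). The 4668 parental-higher regions at protein-coding starts had medians of 48 and 19.8 tags and a median fold of 2.54. All 10792 parental-higher regions had a median of 28 parental tags and a median fold of 2.865. Tag numbers differ between these sets, so the higher median at channel starts is not read as a larger difference. Of the 33 regions, 24 covered a TSS and 21 were nearest the canonical TSS of their gene. All 6 EIR-higher regions were nearest an alternative TSS, and with canonical TSSs only their count was 0. The position of a region decided its class at the margin: *CACNB4* and *KCNMB3* regions at 827 and 981 bp fell inside the window and *KCNIP1*, *CACNA2D4*, *CACNA1H* and *KCNK6* regions at 1173, 1181, 1249 and 1267 bp fell outside it, where they count as gene body.

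**Figure D1:**
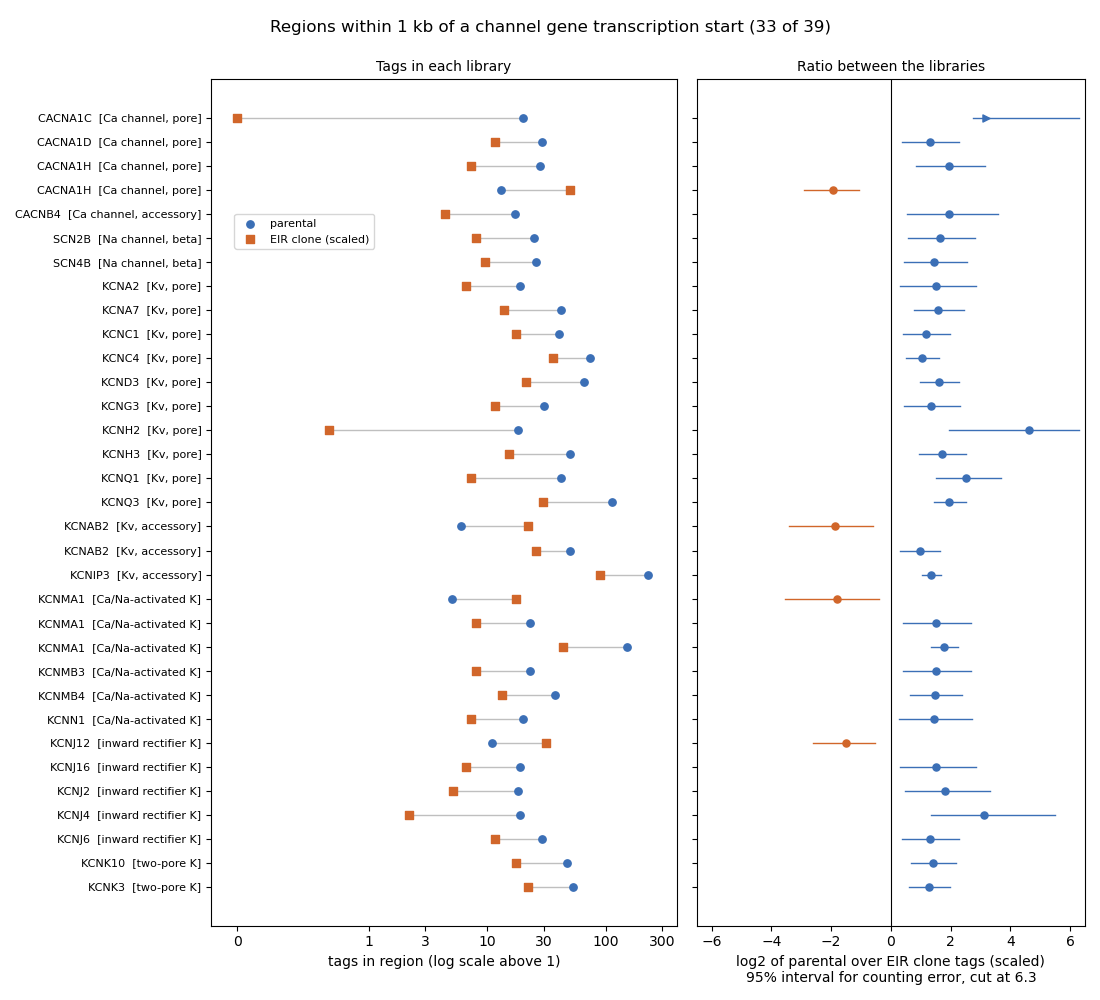
Of the 39 regions within 1 kb of a channel TSS the 33 described here, with tags per region in the parental library (circles) and the EIR clone on the parental scale (squares) on the left, on a log axis above 1. On the right are log2 ratios of parental over EIR tags with their 95% counting intervals, blue for 29 parental-higher and orange for 4 EIR-higher regions, and the triangle is the lower bound for *CACNA1C*, which had 20 parental tags and 0 EIR tags.

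Among the pore-forming calcium channel genes, 3 of 10 had a parental-higher region at a start, and 1 of these also had an EIR-higher one. The shares of all protein-coding genes were 23.2% and 1.96%. With so few genes in each type, differences between the types in these counts are not read. *CACNA1C* encodes the L-type channel of heart and smooth muscle. Its region chr12:2161615-2162115 ended 38 bp upstream of the canonical TSS and held 20 parental tags and 0 EIR tags. That is at least 9.09-fold higher in parental cells against a floor of 3 EIR tags, with a lower interval bound of 6.73. Of all 114 channel regions only this one had no tag in one library, and it is 1 of 4 such regions in the whole parental-higher list.

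*CACNA1D*, the L-type channel of pacemaker and endocrine cells, had 29 parental and 16 EIR tags (11.7 scaled) over its canonical TSS at chr3:53528163-53528787, a fold of 2.47 (1.30 to 4.87). *CACNA1H* encodes a low-voltage-activated T-type channel. Its region over the canonical TSS, chr16:1202823-1203573, held 28 parental and 10 EIR tags (7.3 scaled), 3.82-fold higher in parental cells (1.80 to 8.81). Within the same gene, chr16:1243300-1244638 in intron 2, 391 bp from an alternative TSS, held 13 parental and 68 EIR tags (49.8 scaled) and was 3.83-fold higher in the EIR clone (2.10 to 7.57). The region over the canonical TSS of *CACNA1H* and this intronic region, which covers no TSS, thus differed in opposite directions. Of the 16 accessory calcium channel genes, 1 had a region at a start, a parental-higher one, beside 23.2% of all protein-coding genes. This was *CACNB4*, a cytoplasmic beta subunit, with 17 parental and 6 EIR tags (4.4 scaled), a fold of 3.86 (1.45 to 12).

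None of the 10 pore-forming sodium channel genes, which spanned 1.55 Mb together, had a region of either list at a start or in the body. Of all protein-coding genes, 23.2% had a parental-higher start and 9.22% a parental-higher body region. The EIR-higher shares were 1.96% and 3.13%. With 10 genes, the lack of a region is not read as a trait of this type. The beta subunits, which modulate gating and adhesion, had parental-higher regions at the starts of 3 of 4 genes. *SCN2B* held 25 parental and 11 EIR tags (8.1 scaled) over an alternative TSS, a fold of 3.10 (1.47 to 6.98). *SCN4B* held 26 and 13 tags (9.5 scaled) over its canonical TSS, a fold of 2.73 (1.35 to 5.78), while a region in its intron 1 was 3.00-fold higher in the EIR clone (1.53 to 6.43, with 11 parental and 45 EIR tags).

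The pore-forming Kv genes are the largest type, and 13 of the 40 had a parental-higher start, beside 23.2% of all protein-coding genes. *KCNQ1* encodes the channel of the slow delayed rectifier current of the heart. Its region chr11:2466158-2466920 over the canonical TSS had 42 parental and 10 EIR tags (7.3 scaled), a fold of 5.73 (2.83 to 12.8), and the start of *TRPM5* lay within 1 kb of it. *KCNQ3*, of the neuronal M current, had 114 and 40 tags (29.3 scaled) over its canonical TSS, a fold of 3.89 (2.69 to 5.72).

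*KCNH2* encodes the hERG channel that ends the cardiac action potential. Over its canonical TSS, chr7:150674909-150675409 held 18 parental tags and 1 EIR tag, a fold of 24.5 with an interval of 3.88 to 1023. Apart from the open interval of *CACNA1C*, this is the widest at a channel start, since 1 tag stands against 18. *KCNH3*, of the same ether-a-go-go family, held 50 and 21 tags (15.4 scaled), a fold of 3.25 (1.92 to 5.69).

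*KCNC1* and *KCNC4* encode fast Shaw-type channels of rapidly firing neurons, and both had a parental-higher start. *KCNC1* held 40 parental and 24 EIR tags with a fold of 2.27 (1.34 to 3.94), and *KCNC4* 74 and 49 with a fold of 2.06 (1.42 to 3.02). *KCND3*, an A-type channel gene, held 65 and 29 tags and had a fold of 3.06 (1.95 to 4.91). The Shaker-type genes *KCNA2* and *KCNA7* had folds of 2.88 (19 and 9 tags) and 3.02 (42 and 19 tags). *KCNG3*, whose product has no current of its own and modifies other Kv pores, had 30 and 16 tags and a fold of 2.56. The region of *KCNG3* also lay within 1 kb of the start of *MTA3*.

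Of the 13 accessory Kv genes, 2 had a parental-higher region at a start and 1 of these also had an EIR-higher one. The shares of all protein-coding genes were 23.2% and 1.96%. *KCNIP3* encodes a calcium-binding protein that joins Kv channels and can also bind DNA. Its region, over an alternative TSS in intron 2, held 230 parental and 123 EIR tags (90.2 scaled), a fold of 2.55 (2.04 to 3.20). That is the highest tag number among the channel regions, in a region of 3126 bp. *KCNAB2*, a cytoplasmic beta subunit, had neighbouring starts in opposite directions. At chr1:6050741-6051371 it held 6 parental and 30 EIR tags (22.0 scaled), 3.67-fold higher in the EIR clone (1.50 to 10.8). At chr1:6052051-6052685 it held 50 and 35 tags (25.7 scaled), 1.95-fold higher in parental cells (1.24 to 3.09), and this second region lay within 1 kb of the start of *NPHP4*.

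Per kb, the highest parental level at a channel start was that of *KCNMA1*, the pore of the large-conductance (BK) calcium-activated potassium channel. Its region chr10:79397101-79398271 covered the canonical TSS with its UTR and coding sequence of exon 1, and held 151 parental and 60 EIR tags (44 scaled), or 129 and 37.6 tags per kb. The fold was 3.43 (2.53 to 4.71). Other parental levels per kb were 78.9 at *KCNAB2*, 77.7 at *KCNC4*, 74.8 at *KCNK10* and 73.6 at *KCNIP3*. A region of *KCNMA1* in intron 1, 569 bp from an alternative TSS, held 23 and 11 tags, a fold of 2.85. Another, 81 bp from an alternative TSS near the end of the gene, with part of exon 28, held 5 and 24 tags. It was 3.52-fold higher in the EIR clone (1.32 to 11.8).

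The BK beta subunit genes *KCNMB3* and *KCNMB4* had folds of 2.85 (23 parental and 11 EIR tags) and 2.80 (37 and 18 tags), and the small-conductance gene *KCNN1* one of 2.73 (20 and 10 tags), all toward parental cells. No region was found at *KCNMB1*, *KCNMB2*, *KCNN2*, *KCNN4*, *KCNT1*, *KCNT2* or *KCNU1*.

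Of the 15 inward rectifier genes, 4 had a parental-higher region at a start and 1 an EIR-higher one, beside 23.2% and 1.96% of all protein-coding genes. *KCNJ4* is a classical strong rectifier. Its region chr22:38851757-38852257, 552 bp upstream of the canonical TSS, held 19 parental and 3 EIR tags (2.2 scaled), a fold of 8.64 (2.54 to 45.6). *KCNJ2*, the rectifier of the resting potential in heart and skeletal muscle, held 18 and 7 tags 558 bp from an alternative TSS, a fold of 3.51 (1.40 to 9.94). *KCNJ6*, gated by G proteins, held 29 and 16 tags with a fold of 2.47, and *KCNJ16*, of renal epithelium, 19 and 9 with a fold of 2.88. *KCNJ12* went the other way with 11 parental and 43 EIR tags (31.5 scaled) over an alternative TSS, 2.87-fold higher in the EIR clone (1.45 to 6.16). *KCNJ12* has a near-identical copy, *KCNJ18*, and lies 955 kb from an assembly gap of over 1 Mb, so its reads may be shared and its tags are uncertain.

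The two-pore genes with a region at a start were *KCNK3*, an acid-sensitive background channel, with 53 parental and 30 EIR tags and a fold of 2.41 (1.51 to 3.91), and *KCNK10*, a channel of the stretch-sensitive group, with 47 and 24 tags and a fold of 2.67 (1.60 to 4.57). Both were parental-higher, as were starts of 23.2% of all protein-coding genes. The other 13 two-pore genes had no region at a start.

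Across the types, the median fold of parental-higher starts was 3.82 for calcium channel pores, 3.06 for Kv pores, 3.19 for inward rectifiers, 3.10 for sodium channel beta subunits, 2.85 for calcium- or sodium-activated channels, 2.54 for two-pore channels and 2.25 for Kv accessory genes. The groups held between 2 and 13 regions and no test was made between them. The 5 regions of calcium- or sodium-activated channels ran from 2.73 to 3.43. The 2 of two-pore channels ran from 2.41 to 2.67 and the 2 of Kv accessory genes from 1.95 to 2.55. Counting intervals of single regions overlapped across these types: that of *KCNN1* was 1.22 to 6.53 and that of *KCNK10* 1.60 to 4.57. A single calcium channel accessory region had a fold of 3.86.

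**Figure D2:**
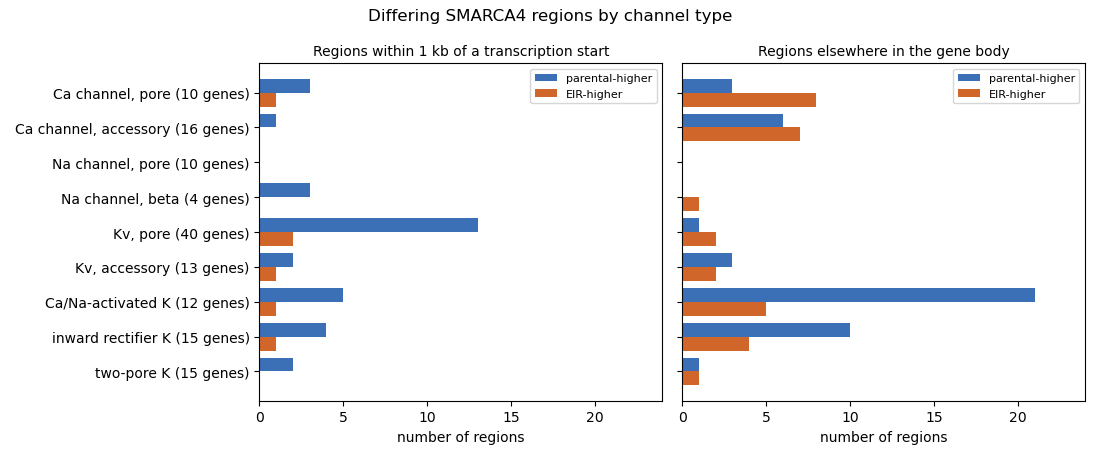
Number of regions by channel type (gene number in brackets), within 1 kb of a TSS on the left and elsewhere in the gene body on the right, blue for parental-higher and orange for EIR-higher. Kv pore genes, the largest type with 40 genes, have 13 parental-higher regions at the starts. The 21 parental-higher body regions of the calcium- or sodium-activated group are all in *KCNMA1*.

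In the gene bodies the balance was different. A parental-higher body region was found in 12 channel genes (8.89%, 5.16 to 14.9%), beside 9.22% of all protein-coding genes, and an EIR-higher one in 19 (14.1%, 9.20 to 20.9%), beside 3.13%. Channel genes are long, with a median of 66.8 kb against 27.2 kb, and 42.2% of them against 18.2% span at least 100 kb. A long gene has more room for a region. Among genes of at least 100 kb, 6 of 57 channel genes had a parental-higher body region (10.5%, 4.91 to 21.1%) beside 25.2% of such genes, and 14 of 57 had an EIR-higher one (24.6%, 15.2 to 37.1%) beside 9.22%. The share with an EIR-higher body region was thus above, and that with a parental-higher one below, the share of all genes of at least 100 kb. These are counts over 2 libraries and were not tested.

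The count of body regions rested on the scaling of the libraries. With the EIR library scaled 1.5 times lower, 6 of the 30 EIR-higher body regions were left, and with it scaled 1.5 times higher, 4 of the 45 parental-higher ones. The 45 parental-higher body regions had medians of 20 parental and 7.3 scaled EIR tags and a median fold of 2.88, against 3.07 for the 3273 regions in protein-coding bodies. The 30 EIR-higher ones had 5 parental and 19.1 scaled EIR tags and a median fold of 3.62, against 3.67 for 756 regions. Of the 75 body regions, 70 touched no exon of the canonical transcript. A TSS of another gene lay within 1 kb of 5 of them, in each case a noncoding gene. These were *KCNMA1-AS2* in *KCNMA1*, *MIR935* in *CACNG8*, *KCNQ1OT1* in *KCNQ1*, and unnamed genes at the EIR-higher body regions of *CACNA1C* and *KCNJ4*.

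*KCNMA1* alone held 28 of the 114 regions and 21 of the 45 parental-higher body regions, the fourth highest number among 1860 protein-coding genes with such a region. Without *KCNMA1*, the parental-higher body regions numbered 24. They spread over the 769 kb gene, 9 in intron 1 and 5 in intron 2, with 17 to 41 parental tags each. The highest fold was 4.55 (1.76 to 13.8, 20 parental and 6 EIR tags) at chr10:79200156-79200656, then 3.90 (1.58 to 10.9, 20 and 7 tags) at chr10:78937494-78937994, and the lowest 1.99 (38 and 26 tags). Between them lay 4 EIR-higher regions. The highest of those, chr10:79342671-79343171 in intron 1, held 4 parental and 29 EIR tags (21.3 scaled), a fold of 5.31 (1.87 to 20.8).

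Parental-higher regions away from any TSS were dense in *KCNMA1*, at 27.3 per Mb against 5.5 in the 1 Mb flanks on both sides, 6.28 on chromosome 10 and 1.84 in the genome. This was not particular to *KCNMA1*. The shorter genes *KCNJ16*, *KCNIP3* and *KCNJ15*, with 3, 3 and 5 such regions, had 36.5, 33.8 and 33.0 per Mb against 2, 4 and 2.5 in their flanks. The other channel genes for which it was computed had 5.25 per Mb or less. In *KCNMA1*, EIR-higher regions away from any TSS were less dense than in its flanks, at 3.90 against 6.5 per Mb. Chromosome 10 was itself dense in both lists and had 11.1% of the regions higher in parental cells and 21.1% of those higher in the clone, and the EIR-higher regions away from a TSS numbered 2.89 per Mb there against 0.523 in the genome. Whether this property of the chromosome bears on *KCNMA1* was not tested. Some opposite regions in the gene were close neighbours: chr10:78907973-78908473 (4 parental and 21 EIR tags) and chr10:78909194-78909694 (19 and 9 tags) lay in intron 5, and chr10:79143279-79143779 (6 and 26 tags) and chr10:79144124-79144624 (20 and 10 tags) in intron 2.

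**Figure D3:**
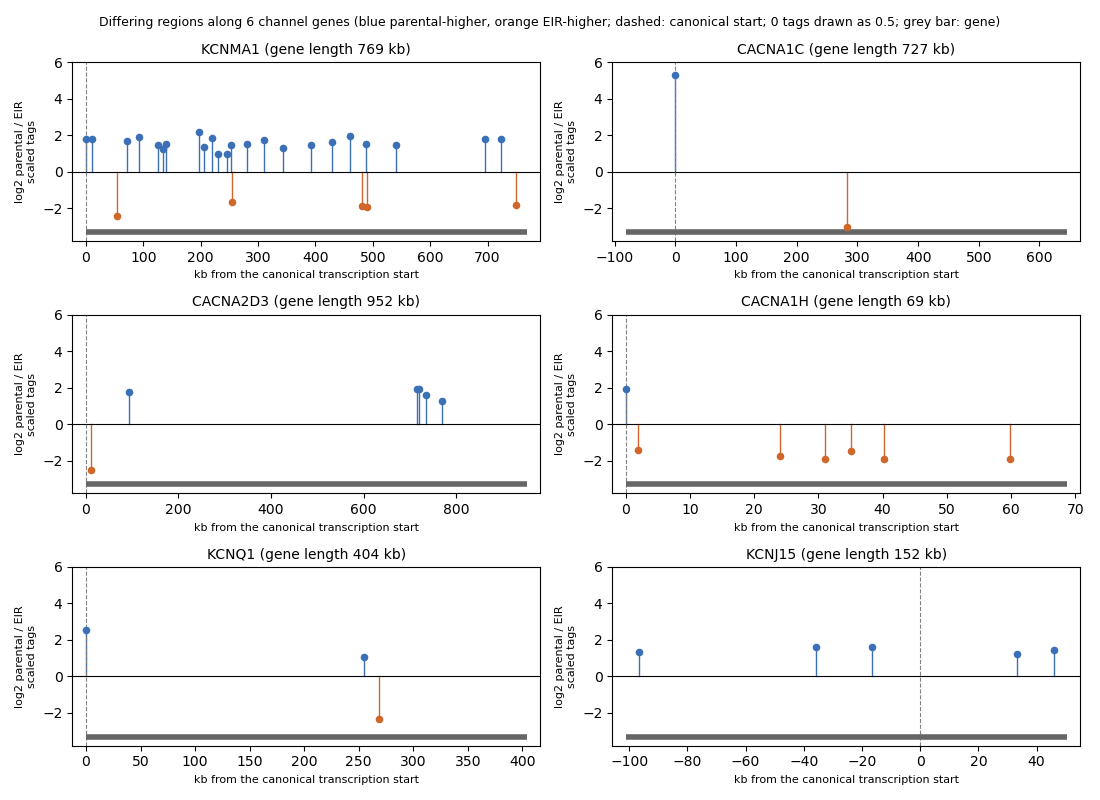
Position of the regions of 6 channel genes in kb from the canonical TSS (dashed line), in the direction of transcription, against the log2 ratio of parental over scaled EIR tags, with the gene as a grey bar. *KCNMA1* holds 23 parental-higher and 5 EIR-higher regions along its length, whereas *CACNA1H* holds 1 parental-higher region at its start and 6 EIR-higher ones downstream.

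*CACNA1H* held the reverse arrangement, with 5 EIR-higher body regions beside the EIR-higher region near an alternative TSS. Only 5 genes shared that number, the sixth rank among 632 protein-coding genes with an EIR-higher body region. Its regions held 5 to 12 parental and 23 to 56 EIR tags. The region with most EIR tags, chr16:1262908-1264150 around exon 27, had a fold of 3.73 (1.93 to 7.90), the highest fold was 3.81 (1.44 to 12.7, 5 parental and 26 EIR tags), and the lowest 2.69 (1.40 to 5.59, 12 and 44 tags). EIR-higher regions away from a TSS numbered 72.8 per Mb of this gene of 68.7 kb, 4.5 in its flanks and 0.808 on chromosome 16. *KCNJ12*, whose tags are uncertain, had a like density of 68.9 per Mb, from 3 regions in 43.5 kb. The other channel genes for which it was computed had 15.8 per Mb or less. No parental-higher body region was found in *CACNA1H*.

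The other calcium channel pores with EIR-higher body regions each held 1, in intron 3. *CACNA1C* at chr12:2444699-2445199 held 2 parental and 22 EIR tags (16.1 scaled), 8.06-fold higher in the EIR clone (1.98 to 70.7). The promoter and this intronic region of *CACNA1C* differed in opposite directions, and a TSS of an unnamed noncoding gene lay within 1 kb of the intronic one. *CACNA1E*, the R-type channel, held 4 and 24 tags, a fold of 4.40 (1.51 to 17.4), and *CACNA1B*, the presynaptic N-type channel, 7 and 29, a fold of 3.04 (1.30 to 8.21). Toward parental cells, *CACNA1S*, the channel of skeletal muscle, had a fold of 3.86 (17 and 6 tags), and *CACNA1A*, the P/Q-type channel, had 2 regions with folds of 2.73 (20 and 10 tags) and 2.30 (27 and 16 tags). *CACNA1F*, *CACNA1G* and *CACNA1I* had no region.

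*CACNA2D3*, a membrane-anchored accessory subunit in a gene of 952 kb, held 5 parental-higher body regions and 1 EIR-higher one. Of the 5, 4 lay together between 714097 and 768512 bp into the gene, with folds from 2.46 (36 parental and 20 EIR tags, over exon 25) to 3.86 (17 and 6 tags), and each of these 4 held an AP-1 match. The EIR-higher region lay 11815 bp into the gene with 3 and 23 tags, a fold of 5.62 (1.70 to 29.2). EIR-higher regions were also found in *CACNA2D4*, which had 2 with folds of 5.38 (3 and 22 tags) and 2.77 (9 and 34 tags), in *CACNG2*, which aids the trafficking of AMPA receptors and had 2 with folds of 4.98 (5 and 34 tags) and 3.85 (4 and 21 tags), in *CACNB2* (3.52, 5 and 24 tags) and in *CACNA2D2* (2.27, 22 and 68 tags). *CACNG8* had a parental-higher region over its last exon with 51 and 19 tags, a fold of 3.66 (2.12 to 6.57). The remaining 9 accessory calcium channel genes, *CACNA2D1*, *CACNB1*, *CACNB3*, *CACNG1* and *CACNG3* to *CACNG7*, had none.

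Potassium channel bodies other than *KCNMA1* held fewer regions. In *KCNJ2*, chr17:68168356-68168856 in intron 1 held 16 parental and 2 EIR tags (1.5 scaled), the highest fold of a parental-higher body region at 10.9 (2.57 to 97.8). *KCNJ16*, the neighbouring gene, had 3 regions in its intron 1 with folds from 3.31 to 3.51 and 17 to 22 parental tags. *KCNJ15* had 5, with folds from 2.30 to 3.07 and 18 to 27 parental tags, of which 3 lay upstream of its canonical start and 1 in its last exon. *KCNJ6* had 1 (2.64, 29 and 15 tags). *KCNJ12* had 3 EIR-higher body regions with folds of 2.89 to 3.57 and 30 to 71 EIR tags, under the same doubt as its start, and *KCNJ4* had 1 with 5 and 23 tags, a fold of 3.37 (1.25 to 11.4), opposite in direction to its promoter.

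*KCNIP3* had 3 parental-higher regions in intron 2 besides its start, with folds from 2.21 to 2.37 over 40 to 56 parental tags; these and its start lay 655 to 684 kb from an assembly gap of over 1 Mb. EIR-higher body regions of Kv accessory genes were those of *KCNIP1* (4.76, 4 and 26 tags) and *KCNAB2* (2.66, 24 and 87 tags, over exon 2). In *KCNQ1*, 2 regions of intron 11, at 255206 and 268954 bp from the canonical TSS, had opposite directions, with 35 and 23 tags (2.08-fold higher in parental cells) and 3 and 21 tags (5.13-fold higher in the EIR clone). The first lay within 1 kb of a start of the antisense transcript *KCNQ1OT1*. *KCNN3* was 4.21-fold higher in the EIR clone (4 and 23 tags). Of the two-pore genes, *KCNK9* was 5.86-fold higher in the EIR clone (1.78 to 30.4, 3 and 24 tags) and *KCNK6* 2.73-fold higher in parental cells (20 and 10 tags).

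Altogether 9 genes held regions in both directions, among them *CACNA1C*, *CACNA1H*, *CACNA2D3*, *SCN4B*, *KCNQ1*, *KCNAB2*, *KCNMA1* and *KCNJ4*. In *CACNA1C*, *CACNA1H*, *SCN4B*, *KCNQ1*, *KCNMA1* and *KCNJ4* a parental-higher region lay within 1 kb of the canonical TSS and an EIR-higher one further into the gene. The shares of all protein-coding genes with both directions, or with this arrangement, were not computed. Channel genes are long, and neither count is read here as a trait of them.

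Base composition went with position and direction. Parental-higher regions at channel starts had a median G+C content of 75.0% (33.5 to 84.7%), against 70.9% at all protein-coding starts, and 22 of the 33 reached 70%. None of the 36 EIR-higher channel regions reached 70%, but 30 of them lay in gene bodies and 6 near alternative TSSs. All 2104 EIR-higher regions had a median of 51.5%. The shares of all listed regions that reached 70% were not computed, so these counts are not read as a trait of channel genes. EIR-higher body regions had a median of 55.5%, against 46.3% for the parental-higher body regions of channel genes and 51.1% for all EIR-higher regions in protein-coding bodies. Whether the base composition of the DNA recovered in each library takes part in these differences was not tested.

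**Figure D4:**
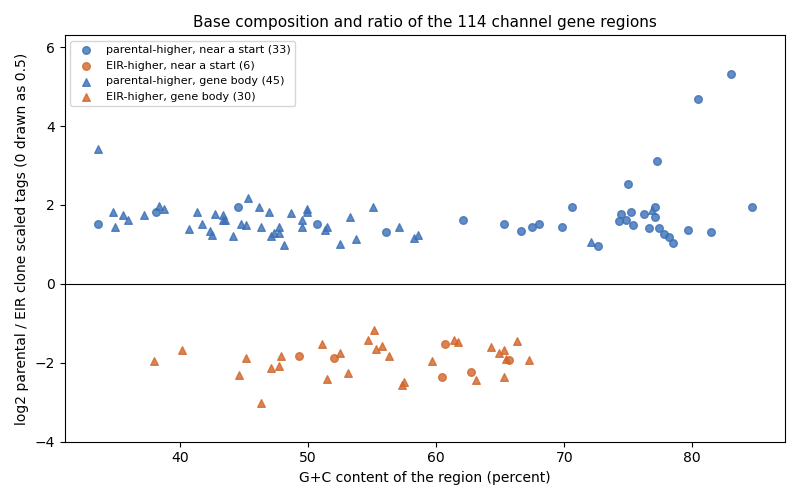
G+C content of the 114 channel gene regions in percent against the log2 ratio of parental over scaled EIR tags, circles within 1 kb of a TSS and triangles in gene bodies, blue for parental-higher and orange for EIR-higher. Circles at the right, 22 of them at 70% or more, are all parental-higher, and no EIR-higher region lies there.

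Motif matches were counted on both strands. The AP-1 motif was searched as TGANTCA and the core of the REST site as TCAGCACC, and the end of the first can overlap the start of the second by the letters TCA. In regions of exactly 500 bp, where length cannot differ, AP-1 was matched in 5 of 36 parental-higher channel body regions (13.9%, against 19.0% of 2276 regions in protein-coding bodies) and in 3 of 20 EIR-higher ones (15%, against 15.2% of 631). The REST core was matched in 2 of the 36 (5.56%, against 1.71%) and 2 of the 20 (10%, against 6.02%), and at the starts in 1 of 14 parental-higher regions (7.14%, against 2.58% of 1473). Over all lengths, which can differ from those of other genes, the REST core was found in 13 of the 114 regions. At parental-higher starts it was in 4 of 33 (12.1%, against 3.96% at protein-coding starts), those of *KCNC1*, *KCNH3*, *KCNJ6* and *KCNK3*. In parental-higher bodies it was in 2 of 45 (4.44%, against 1.99%). For EIR-higher regions it was in 2 of 6 at starts (33.3%, against 7.83%) and 5 of 30 in bodies (16.7%, against 7.80%). The counts are small, and a match is a description of the letters only.

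Of the 135 channel genes, 87 had no region. These included 27 of 40 Kv pore genes, *KCNB2* and *KCNH1* among them, 11 of 15 two-pore genes and all 10 sodium channel pores. They also included 10 of 13 Kv accessory genes, with *KCNE1* to *KCNE5*. Of the 15 inward rectifier genes, 9 had none, among them *KCNJ8* and *KCNJ11*, whose products are pores of ATP-sensitive channels. The share of all protein-coding genes without any region was not computed, so these counts are not read as traits of a type. A list of 47 related genes outside the symbol rule (HCN, CNG, CATSPER and NALCN channels, channel-anchoring proteins, calmodulins, *REST* and *RCOR1*) had a parental-higher region at a start in 12 (25.5%, beside the same 23.2%), an EIR-higher one in 1 (2.13%), a parental-higher body region in 4 (8.51%) and an EIR-higher one in 6 (12.8%). *REST* and *RCOR1* were among the 12.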

How the data were processed

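FLAG-SMARCA4 ChIP-seq was analysed in 1 library of parental TOV21G cells and 1 of EIR clone 3, grouped by the sample labels. Reads were mapped by the authors to hg19 (Bowtie 0.12.9), and HOMER regions in histone mode were taken at an FDR of 5% with either library as control for the opposite one. The deposited parental-higher list gives a count of parental tags per region. The deposited signal of the EIR library is in tags scaled to the parental total. The ratio (fold) and the Poisson p-value of each region are those deposited by the authors, who took 0.5 tag for none. The p-value was used only in an alternative. A further 3 deposited columns were not used: the findPeaks score, a clonal fold change and a region size whose values lie between 0 and 1.

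Whole EIR tags were recovered from the steps of the scaled values, of which 98.32% were whole within 0.05 of a scaled tag. Regions were joined to GENCODE release 44 mapped to GRCh37, which has the coordinates of hg19. A region within 1 kb (nearest edge) of any TSS of a channel gene counted as a start, and any other region overlapping the gene as body. *SCN8A* has no canonical transcript in that annotation, and its longest coding one was used. Ratios against 0 tags used a floor of 3 tags. Reads had no molecular identifiers, so intervals cover counting error only. RefSeq promoter sequences, which are on another build, were not used.

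The members, channel types and lists were chosen with earlier results of these data known. Named are the genes with a region at a start, regions with no tag in one library, the 2 largest body folds in each direction and type, genes with 3 or more body regions and genes with both directions. Some channel genes are counted but not reported here by name. Other genes with body regions were named after their values were seen. No test was made, since each condition has 1 library and every region was selected for a difference. Alternatives were a p-value of at most 1e-06, a fold of at least 4, the EIR library scaled 1.5 times higher or lower, canonical TSSs, pore-forming voltage-gated genes, windows of 500 bp and 5 kb, and 1 tag added to both libraries. The join and the intervals were tested on simulated data. Tools were pysam 0.24.0 for sequences, scipy 1.17.1 for intervals, pandas 2.3.3 and numpy 2.4.6 for tables and matplotlib 3.10.9 for plots, under Python 3.11.15.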

Additional observations from a re-analysis of the deposited data

How the results depend on the processing

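The main counts were 32 genes with a start higher in parental cells and 5 with one higher in the EIR clone, 33 and 6 regions at starts, and 45 and 30 regions in bodies. At a p-value of at most 1e-06 there were 19 and 3 genes, 19 parental-higher regions at starts, and 7 and 15 body regions. At a fold of at least 4 there were 4 and 1 genes, 4 and 2 regions at starts, and 2 and 10 in bodies. With the EIR library scaled 1.5 times higher, 15 genes and 15 regions at starts and 4 body regions stayed parental-higher, and the median fold of parental-higher starts was 1.92 and that of EIR-higher bodies 5.43. With it scaled 1.5 times lower, 2 genes and 2 regions at starts and 6 body regions stayed EIR-higher, with medians of 4.32 and 2.41. The regions were kept there at a Poisson p-value of at most 0.0001, and since the lists hold only regions that differ, neither scaling could add one. With canonical TSSs only, 0 EIR-higher regions and 0 genes with one were left at starts. The pore-forming voltage-gated genes had 16 genes and 16 regions at starts higher in parental cells, 2 genes and 3 regions higher in the EIR clone, and 4 and 10 body regions. A window of 5 kb gave 11 genes and 20 regions with an EIR-higher start and left 19 EIR-higher body regions. The median fold of EIR-higher body regions was 3.62, and 4.76 at a p-value of at most 1e-06. Leaving out *KCNMA1*, chosen after seeing the data, left 24 parental-higher body regions. The other counts and medians stayed within 1.5 times or within the interval of the main median. Of the 114 single folds, none changed direction, 114 stayed within their interval with 1 tag added to both libraries, and 110 did with either scaling. The 4 that left it were those of *KCNMA1* at its canonical start, *KCNIP3*, *KCNC4* and *KCNQ3* at their starts. With 10 of the 114 regions at 3 tags or fewer in the lower library, depth limits the folds of *CACNA1C*, *KCNH2*, *KCNJ2* and *KCNJ4* most.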
